A study of Homo sapiens with 6 samples.

Results

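MCM2, MCM3, MCM4, MCM5, MCM6 and MCM7 encode the subunits of the ring that unwinds DNA at replication forks, and MYC peaks near their starts were examined in ONS76 cells. ONS76 is an established human medulloblastoma line, a tumor of the cerebellum. The labels give its genotype as inducible SOX2, whereas the methods name plain ONS76 cells for this assay. The series held 6 libraries, 3 prepared with the MYC antibody Y69 and 3 with normal IgG, a non-specific antibody. Per the study SOX2 had not been raised in these cells, and 3 immunoprecipitations from the same batch of chromatin were combined. Nothing says that the replicates came from separate cultures, so the spread between them may be technical. A member was any MYC peak with its summit, the base of highest enrichment, within 5 kb of the hg19 start of 1 of the 6 genes. This rule used position only and found 15 of 59006 peaks, 1 for each of 5 genes in each of the 3 MYC libraries.

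The products of these genes form a hetero-hexamer that is loaded onto DNA as an inactive double ring in G1 phase, a step called licensing. Kinases and the partners CDC45 and GINS later turn it into the active helicase. MYC binds DNA as a dimer with MAX, with a preference for the E-box CACGTG, and the MCM genes are textbook targets of E2F factors, which switch on genes for S phase.

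The 250 bases before the RefSeq start are shown for MCM2, MCM3, MCM6 and MCM7, since these promoters differed in the E-boxes that MYC is known to prefer. RefSeq promoter windows were matched for 4 of the 6 genes; none was used for MCM4 and MCM5. Capitals mark matches on either strand to CACGTG, to the non-canonical E-box CACGCG, or to the E2F sequences TTTGGCGC, TTTCCCGC, TTTCGCGC and TTTGCCGC. Sequences run 5′ to 3′ in the direction of the gene and are RefSeq sequences of GRCh38.p14, at chr3:127598161-127598410 (plus strand) for MCM2, chr6:52284743-52284992 (minus strand) for MCM3, chr2:135876444-135876693 (minus strand) for MCM6 and chr7:100101398-100101647 (minus strand) for the outermost of 3 RefSeq starts of MCM7.
MCM2: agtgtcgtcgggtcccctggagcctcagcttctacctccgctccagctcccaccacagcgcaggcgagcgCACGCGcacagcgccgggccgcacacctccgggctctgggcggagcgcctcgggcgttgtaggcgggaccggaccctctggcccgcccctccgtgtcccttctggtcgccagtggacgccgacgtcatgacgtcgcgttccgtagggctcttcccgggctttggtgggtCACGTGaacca
MCM3: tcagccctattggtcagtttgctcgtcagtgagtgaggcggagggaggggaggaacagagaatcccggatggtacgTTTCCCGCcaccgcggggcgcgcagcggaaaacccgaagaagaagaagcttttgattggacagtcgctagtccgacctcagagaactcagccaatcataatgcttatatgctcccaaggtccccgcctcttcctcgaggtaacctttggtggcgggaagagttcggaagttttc
MCM6: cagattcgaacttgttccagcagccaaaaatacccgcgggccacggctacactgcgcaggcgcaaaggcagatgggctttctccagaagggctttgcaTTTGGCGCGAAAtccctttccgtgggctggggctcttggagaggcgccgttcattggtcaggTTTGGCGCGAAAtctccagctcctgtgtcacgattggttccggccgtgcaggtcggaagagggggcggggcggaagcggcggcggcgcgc
MCM7: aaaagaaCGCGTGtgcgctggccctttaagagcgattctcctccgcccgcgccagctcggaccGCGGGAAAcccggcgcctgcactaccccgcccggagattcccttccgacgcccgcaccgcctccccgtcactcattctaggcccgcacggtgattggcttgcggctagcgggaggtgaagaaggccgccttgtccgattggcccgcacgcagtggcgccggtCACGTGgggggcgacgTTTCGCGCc

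MYC peaks were found at 5 of the 6 genes, and each of these 5 genes had a peak in all 3 libraries. MCM7 carried by far the highest fold enrichment, MCM6 the lowest, and MCM5 had no peak. The 5 bound genes corresponded to 5 merged places, and all 5 had peaks from every library, whereas 45.0% of all 27801 places in the series did. A summit in all 3 libraries was present in 3.88% of 10 kb windows across the genome. These windows cover any sequence and not gene starts alone, and the share of all gene starts with a peak was not computed because no hg19 annotation was used. Each list had 1 peak per bound gene within 5 kb.

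The genome-wide background of a list, the coverage expected if its fragments lay evenly along the genome, served as the measure of depth. It came to 7.79, 5.84 and 4.76 fragments in replicates 1, 2 and 3, whose lists held 24899, 16809 and 17298 peaks. Fold enrichment compares the fragments at a summit with the local background, after MACS2 adds 1 to each. Both quantities were worked back from the fold enrichment and p-value of each peak.

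MCM7 forms part of the hexamer's ATPase ring, and its gene hosts the MIR106B, MIR93 and MIR25 microRNAs. Fold enrichment at its start was 38.9 in replicate 1, 40.7 in replicate 2 and 48.2 in replicate 3 (mean 42.6 ± 4.97, SD, n = 3). These peaks ranked 12, 4 and 3 by fold enrichment in their lists and 4, 2 and 2 by p-value. Among the 12499 places found in all 3 libraries, MCM7 was number 4 by geometric mean fold enrichment, at 42.4 against a median of 5.40. It was number 2 of the 813 such places on chromosome 7. The summits held 761, 429 and 403 fragments. MCM7 was thus at the top of each list, with no other MCM gene near it.

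The local background at MCM7 was also raised, at 2.39, 1.64 and 1.55 times the genome-wide level in replicates 1, 2 and 3. Other peaks within 1 Mb had median levels of 1.80, 1.62 and 1.62, while the medians of the whole lists were 1.16, 1.05 and 1.06. Background was thus above the list median at neighboring peaks as well as at MCM7, which stood above these neighbors in replicate 1. Between peaks the background is not known. The part of this raised background in the MCM7 values was not tested. Fragments over the genome-wide level were higher still, at 97.7, 73.5 and 84.7.

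The MCM7 peaks were broad and lay mainly inside the gene. They were 2086, 1765 and 1766 bp wide, against median widths of 499, 438 and 437 bp in the lists, and merged into chr7:99697890-99699975 in hg19. This interval contains the start used here, chr7:99699563, but the summits lay 1365, 1351 and 1328 bp downstream of it in the direction of the gene. MCM7 has several annotated starts, and the head-to-head neighbor AP4M1, which encodes a subunit of the AP-4 adaptor complex, is transcribed in the opposite direction. In GRCh38 the 3 RefSeq starts of MCM7 lie 543, 1186 and 1411 bp inside its outermost GENCODE v44 start, and those of AP4M1 lie 297 and 1146 bp inside it. No position was carried between builds, so the summits were not assigned to any 1 of these starts.

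**Figure D1:**
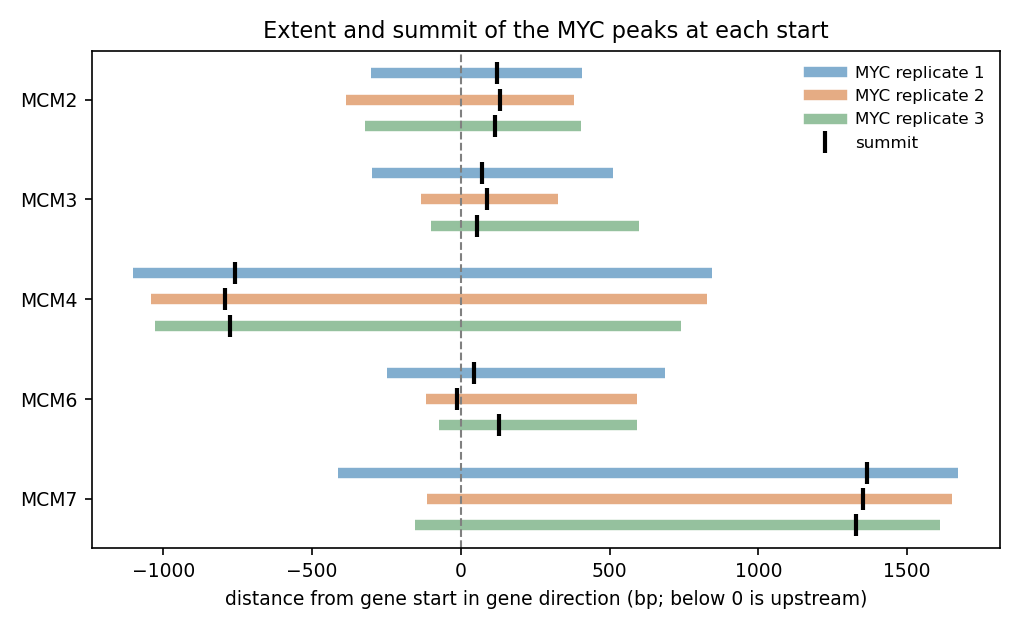
Extent (colored bars) and summit (black ticks) of the MYC peak at each bound gene in each MYC replicate, against distance in bp from the hg19 start in the direction of the gene, with upstream below 0. Summits sit near the start at MCM2, MCM3 and MCM6, upstream at MCM4 and downstream at MCM7.

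MCM4, another ATPase subunit, had the second highest mean. Fold enrichment was 17.8, 11.8 and 10.5 in replicates 1, 2 and 3 (mean 13.4 ± 3.91, SD, n = 3), on 173, 84 and 79 fragments. Replicate 1 stood above the other libraries. The ratio of replicate 1 to replicate 3 was 1.70, against a median of 1.05 over all places found in every library, and 97.8% of these places had a ratio at or below it. In geometric mean fold enrichment the place ranked 683 of 12499.

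The MCM4 peaks spanned its start, chr8:48873479 in hg19, with a merged interval of chr8:48872379-48874323 and widths of 1945, 1870 and 1769 bp. Their summits lay 760, 793 and 776 bp upstream, on the side of PRKDC. PRKDC encodes the catalytic subunit of DNA-PK, a kinase of double-strand break repair, and is transcribed away from MCM4. In GRCh38 the outermost GENCODE v44 starts of both genes are 7 bp apart, and MCM4 transcripts begin at 25 positions, so a summit here cannot be given to 1 gene of the pair. The nearest other peak was 47.4 kb downstream in each library, with fold enrichment of 20.8, 13.7 and 18.0.

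MCM2 encodes the subunit whose N-terminal tail also binds histones H3 and H4. Fold enrichment was 6.60 in replicate 1, 11.4 in replicate 2 and 10.4 in replicate 3 (mean 9.48 ± 2.55, SD, n = 3). Replicate 1, the deepest library, gave the lowest value. Its ratio to replicate 2 was 0.577, against a median of 1.14 over all places found in every library, and only 0.656% of these places had a ratio at or below it. The local background there was 1.68 times the genome-wide level in replicate 1 and 1.10 in both others. Fragments at the summit were 92, 84 and 64, or 11.8, 14.4 and 13.5 times the genome-wide level, so replicate 1 was also lowest on that scale, by a smaller margin.

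The MCM2 summits lay 121, 131 and 115 bp downstream of the start, chr3:127317200, in peaks of 709, 767 and 727 bp that merged into chr3:127316815-127317608 in hg19. The 3 summits fell within 16 bp of each other. Just outside the window, 7152, 7093 and 7111 bp upstream of MCM2, all 3 libraries had another peak, with fold enrichment of 13.1, 11.5 and 12.7. It was the nearest peak beyond 5 kb at any of the 6 genes and was higher than the MCM2 peak in each library, by little in replicate 2. In GRCh38 the opposite-strand gene TPRA1 has RefSeq starts 179 and 7677 bp upstream of the outermost MCM2 start. The outermost GENCODE v44 start of TPRA1 is 143 bp upstream of it, so the peak at MCM2 cannot be given to 1 gene of this pair either.

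MCM3, the subunit known to contact ORC and CDC6 when the ring is loaded, had intermediate peaks. Fold enrichment was 8.84, 7.88 and 6.68 in replicates 1, 2 and 3 (mean 7.80 ± 1.08, SD, n = 3), on 82, 55 and 39 fragments. The local background was close to the genome-wide level, at 1.08, 1.05 and 1.05 times it. Summits lay 73, 89 and 55 bp downstream of the start, chr6:52149582 on the minus strand, in a merged interval of chr6:52148982-52149881 in hg19. The nearest other summits were far off, 67.9, 77.3 and 77.3 kb upstream.

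MCM6, which adjoins MCM2 and MCM4 in the ring, had the weakest peaks. Fold enrichment was 4.44, 3.51 and 3.30 in replicates 1, 2 and 3 (mean 3.75 ± 0.606, SD, n = 3). The summits held 38 fragments (exact Poisson 95% interval 26.9 to 52.2), 23 (14.6 to 34.5) and 18 (10.7 to 28.4), intervals that cover counting error only. Background at each was at the genome-wide level of 7.79, 5.84 and 4.76 fragments. The −log10 q-values were 11.9, 4.96 and 3.43, all past the study's q-value limit of 0.05. The MCM6 peak was below the median fold enrichment of its list in replicates 2 and 3 but not in replicate 1. Ranked by p-value, it was just below the median in replicate 1 too, at percentile 49.3. The MCM6 place ranked 11084 of the 12499 places found in every library.

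The MCM6 summits lay 45 bp downstream, 13 bp upstream and 129 bp downstream of the start, chr2:136633996 on the minus strand, in peaks of 936, 709 and 666 bp. They were spread over 142 bp, whereas the 3 summits of every other bound gene fell within 37 bp. The merged interval was chr2:136633308-136634243 in hg19. In each list the neighbors within 1 Mb included stronger peaks, the highest with fold enrichment of 17.3, 14.2 and 17.2.

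MCM5, which forms the gate through which the ring opens together with MCM2, had no summit within 5 kb of its start, chr22:35796116, in any library. The nearest summits were 23.0 kb upstream in replicate 1, 49.1 kb upstream in replicate 2 and 228 kb downstream in replicate 3, each at a place found in that library alone. They were weak, with fold enrichment of 3.30, 4.24 and 3.65. The fewest fragments of any listed peak on a genome-wide background were 19, 16 and 14, so fewer fragments than these would not have been listed. The lowest fold enrichment among such peaks was 2.28, 2.49 and 2.61, and weaker enrichment on this background was not detectable at this depth. The local background at MCM5 is not known, because the lists give values at peaks only.

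**Figure D2:**
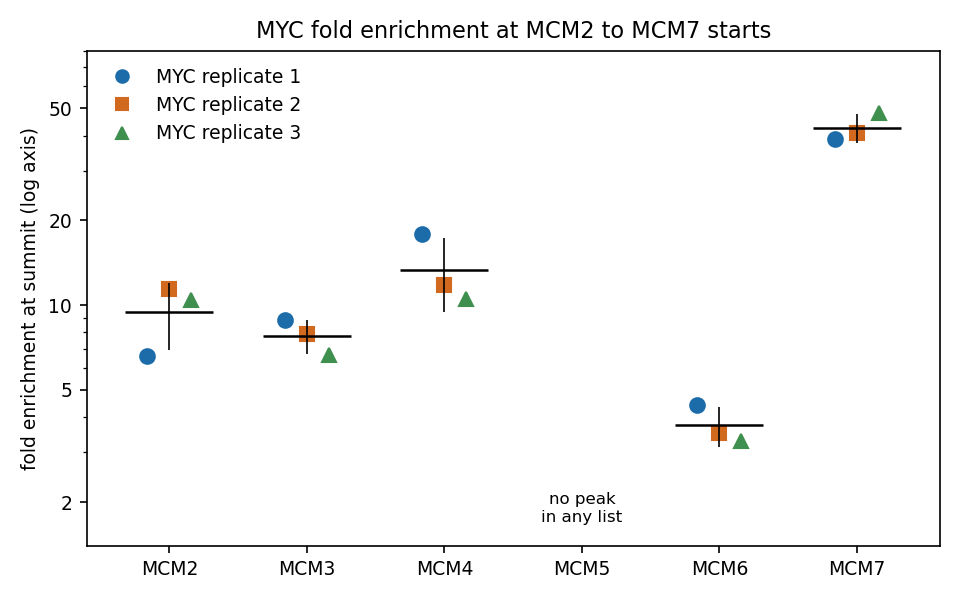
Fold enrichment at the summit on a log axis for each MCM gene, with 1 point per MYC replicate, a horizontal bar for the mean and a vertical bar for the SD (n = 3). MCM7 lies between 38.9 and 48.2, the other bound genes lie between 3.30 and 17.8, and MCM5 has no peak.

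The order by mean fold enrichment was MCM7, MCM4, MCM2, MCM3 and MCM6. Of the 10 pairs among these genes, 8 had ranges over the 3 libraries that did not overlap, beside 58.5% of all pairs of places found in every library. Each of the 8 pairs gave p = 0.1 in a two-sided exact permutation test of log2 fold enrichment, the smallest that 3 against 3 allows. This test treats the values of both genes as separate samples, although the same 3 libraries gave every gene. Taken as differences within a library, 9 pairs gave p = 0.25 and MCM2 against MCM3 gave p = 0.5 (exact sign-flip permutation test, two-sided), where 0.25 is the smallest that 3 libraries allow. Neither exact test could reach 0.05 with 3 libraries, even before adjustment, so the differences are given as values with their spread. The 5 pairs with MCM5 had no value.

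MCM7 exceeded MCM4, its neighbor in the order, by 2.18, 3.45 and 4.59 times in replicates 1, 2 and 3. The mean difference was 1.70 ± 0.54 on the log2 scale (SD, n = 3). MCM3 exceeded MCM6 by 1.99, 2.25 and 2.02 times, a mean log2 difference of 1.06 ± 0.094 (SD, n = 3) and the steadiest of the 10. These pairs were apart in each library.

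MCM4 and MCM2 were not separated beyond their spread. The ratio of MCM4 to MCM2 was 2.70 in replicate 1 but 1.03 and 1.01 in replicates 2 and 3 (exact permutation test, two-sided, p = 0.2). MCM2 and MCM3 changed order between libraries, with ratios of 0.747, 1.45 and 1.56 (exact permutation test, two-sided, p = 0.5). Without replicate 1, all 10 pairs kept 1 order in the remaining libraries. For MCM4 over MCM2 this rested on the 1 that MACS2 adds to each term. With nothing added, replicate 3 gave 11.9 for MCM4 and 12.2 for MCM2. Over all 3 libraries 8 pairs then kept 1 order, beside 9 with 1 added.

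**Figure D3:**
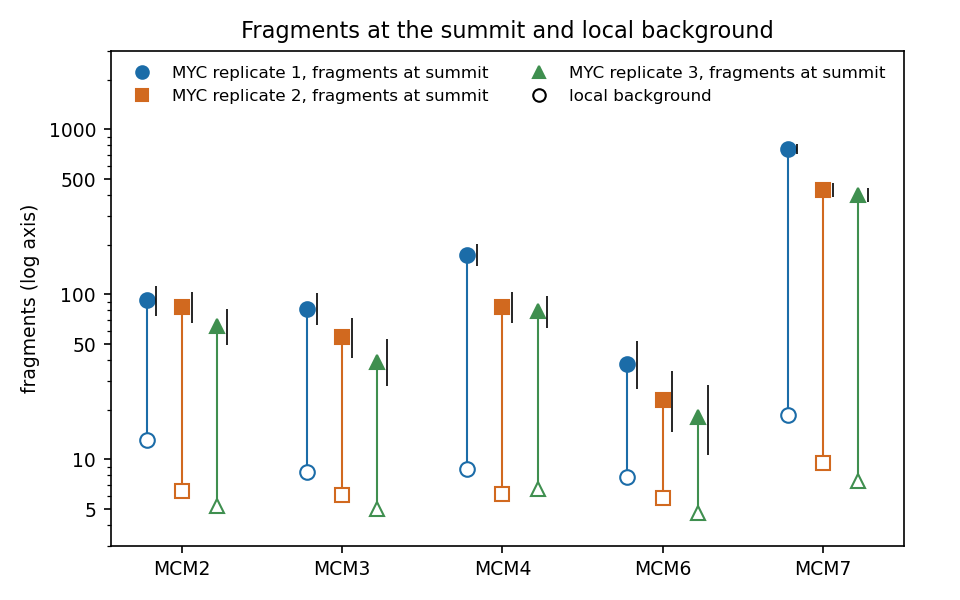
Fragments at the summit (filled symbols, with thin black exact Poisson 95% intervals) and local background (open symbols) on a log axis at each bound gene in each MYC replicate. Within each replicate background is highest at MCM7, followed in replicate 1 by MCM2, while summit fragments run from 18 at MCM6 to 761 at MCM7.

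Set within each list, the MCM peaks covered nearly the whole range of MYC enrichment. Of the 15 peaks, 13 were above the median fold enrichment of their list, which was 4.15, 4.49 and 4.78 in replicates 1, 2 and 3. The exceptions were MCM6 in replicates 2 and 3, at percentiles 24.1 and 12.8 after 56.0 in replicate 1. Each bound gene is counted in every list. In these lists 50.7%, 77.8% and 75.9% of peaks were at places found in all 3 libraries, as all MCM peaks were. Over such places the median geometric mean fold enrichment was 5.40, above MCM6 at 3.72 and below the other bound genes. With lists cut to the same length, fewer of the 15 peaks were above the median. The mean percentile of MCM6 then went from 31.0 to 23.1. MCM7 was at percentile 99.96 or above in each list. MCM4 was at 98.7, 95.4 and 92.2.

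MCM2 stood at percentiles 79.9, 95.1 and 91.9, and MCM3 at 89.6, 86.0 and 76.0. Neither fell below percentile 76.0 in any list. All 15 peaks were wider than the median peak of their list, and MCM4 and MCM7, the widest, were also the strongest on average.

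**Figure D4:**
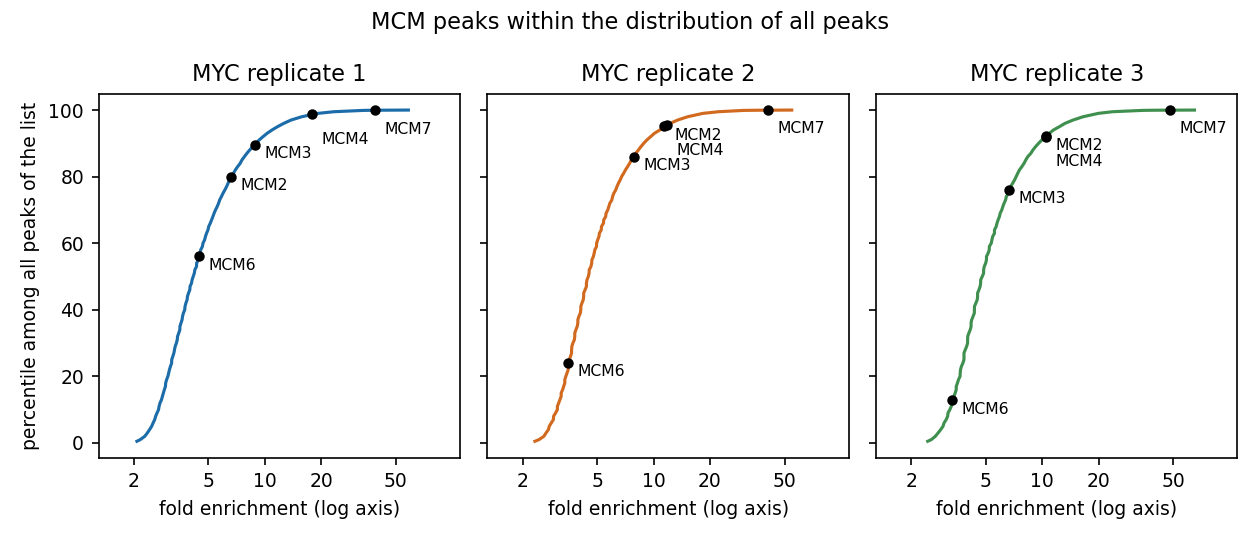
Percentile among all peaks of the list against fold enrichment on a log axis, 1 panel per MYC replicate, with the curve for all peaks and black points for the MCM genes. MCM7 is at the upper end of each curve and MCM6 falls from percentile 56.0 in replicate 1 to 12.8 in replicate 3.

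The promoter windows of RefSeq, from 250 bases before to 50 bases after each start, were then compared for motifs, with positions counted from the start as 0. The canonical E-box was present once in MCM2, from 11 to 6 bases before the start, and once at the outermost start of MCM7, from 25 to 20 bases before it. It was absent from the windows of MCM3 and MCM6 and from the other 2 MCM7 starts. It was thus in 2 of the 6 MCM windows, beside 7.26% of all 35116 RefSeq windows. At MCM7 the window with the E-box belongs to the start 543 bp inside the outermost GENCODE start, and to which of these the hg19 start corresponds was not settled. Were it the outermost GENCODE start, the summits 1328 to 1365 bp downstream would lie between the inner RefSeq starts, at 1186 and 1411 bp, whose windows lack CACGTG. The hg19 start could be the outermost GENCODE start or the RefSeq start 543 bp inside it. Either way the MCM7 summits would lie downstream of the MCM7 E-box and not on it. In GRCh38 the RefSeq start of MCM2 lies 1 bp inside its outermost GENCODE start. Were the hg19 start either of these, the MCM2 summits, 115 to 131 bp downstream, would also lie downstream of the MCM2 E-box. Whether MYC also bound at either E-box, away from the summits, was not tested, and no position was carried between builds.

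CACGCG was present in 3 of the 6 windows, those of MCM2, MCM3 and the outermost MCM7 start, beside 11.4% of all windows. E2F sequences of any of the 4 forms were present in 4 of the 6 windows, beside 3.31% of all windows. The same 4 windows, 1 for each gene, held TTTCGCGC, beside 0.515% of all windows. At MCM6 TTTGGCGC was followed by an overlapping TTTCGCGC on the opposite strand at 2 sites, seen above as TTTGGCGCGAAA, 152 to 141 and 90 to 79 bases before the start. At MCM2, 2 overlapping matches to TTTCGCGC on opposite strands lay from 2 to 13 bases after the start and so beyond the printed bases. MCM3 had TTTCCCGC from 174 to 167 bases before the start and TTTCGCGC across it. The outermost MCM7 window had TTTCCCGC from 187 to 180 and TTTCGCGC from 9 to 2 bases before the start. These matches describe the sequence and do not show that a factor was bound. The E-box and E2F sequences all contain CpG, and no share was computed for windows of like CpG content.

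**Figure D5:**
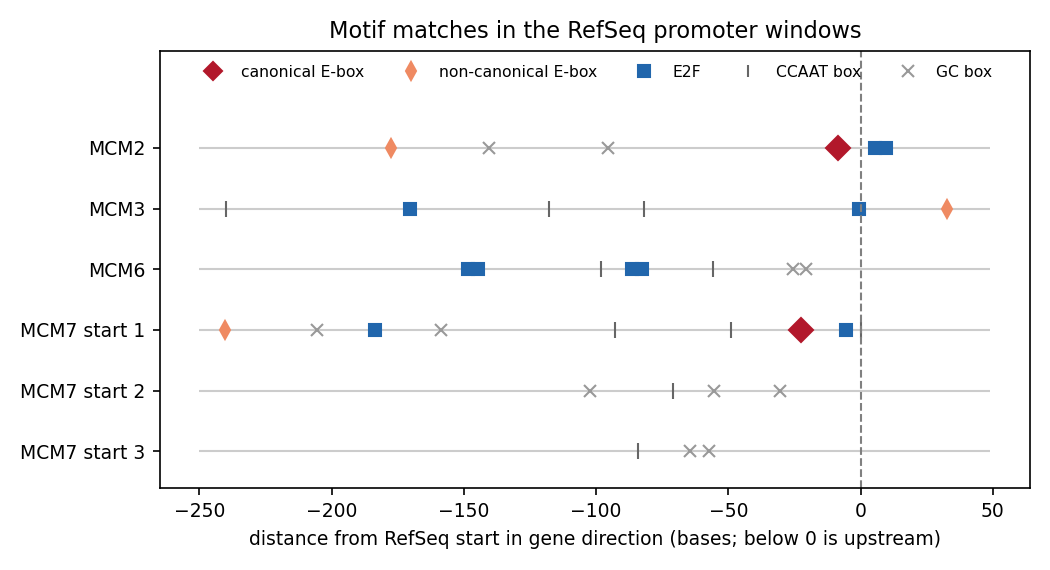
Positions of motif matches in the RefSeq promoter windows (GRCh38) of 4 MCM genes, in bases from the start in the direction of the gene, with MCM7 shown for its 3 starts. Red diamonds mark the canonical E-box CACGTG, present at MCM2 and the outermost MCM7 start only; blue squares mark E2F sequences, present at each gene but not at the inner MCM7 starts.

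CCAAT boxes were present at MCM3, MCM6 and all 3 MCM7 starts, and in 34.6% of all windows. The GC box GGGCGG was present at MCM2, MCM6 and all 3 MCM7 starts, and in 45.0% of all windows. Each MCM window held more CpG dinucleotides than the median of 14 over all windows. There were 35 at MCM2, 22 at MCM3, 30 at MCM6 and 39 at the outermost start of MCM7. These counts were at percentiles 87.3, 64.2, 79.3 and 92.4 of all windows. GC content was 57.3% at MCM3, below the median of 58.7%, and 62.3% or more in the other MCM windows.

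Other genes of replication could not be placed against the hg19 peaks, so only their promoters were compared. Of 37 genes for licensing, helicase activation and the fork, 35 had RefSeq windows. The canonical E-box was present in 4 of the 35, namely ORC4, GMNN, MCM8 and FEN1, or 11.4% of them, beside 8.77% of all 27305 genes. ORC4 belongs to the origin recognition complex, GMNN encodes the licensing inhibitor geminin, and FEN1 trims Okazaki fragments. An E2F sequence was present in 17 of the 35, or 48.6%, beside 3.99% of all genes. They included CDC6 and CDT1, which load the helicase, GINS1, GINS2 and GINS3 of the active helicase, and PCNA, the sliding clamp of the fork. The shares over all genes were not matched for CpG content, so how much of the gap goes with CpG was not tested.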

How the data were processed

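MYC and IgG libraries of ONS76 cells were assigned to groups and replicates from the labels. The authors aligned the reads to hg19 (Bowtie2) and called peaks per library (MACS2, q-value limit 0.05). Which control was used, how duplicates were handled and which versions ran is not stated in the sources used here. The IgG libraries were not analysed here. The deposited lists give, per peak, the fold enrichment (a ratio, as explained with the results), −log10 p-values and −log10 q-values, the summit, and a score that repeats the −log10 q-value. The authors did not scale these values between libraries.

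Fragments at a summit were the whole number that gave the deposited −log10 p-value within 0.001, which was found for 100% of peaks. The lowest background in a list served as genome-wide level. Both this step and the merging of peaks that shared at least 1 bp were tested on simulated data. Gene pairs were compared with exact permutation tests, unpaired and within libraries (scipy 1.17.1, Python 3.11.15). The 6 genes, their hg19 starts and the gene lists were chosen with earlier results of these data known. All 6 are named whatever their values, and TPRA1 was named after its neighboring peak was seen. The reference is GRCh38, used only for names, strands, distances between starts and RefSeq promoters. Alternatives covered q-value limits, windows, scaling, ranking and each replicate left out.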

Additional observations from a re-analysis of the deposited data

How the results depend on the processing

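MYC peaks were found at 5 genes in at least 2 libraries with windows of 2 and 10 kb, a reciprocal overlap of 50%, lists cut to the same length, q-value limits of 0.01 and 0.001 and each replicate left out. With a window of 1 kb the number was 4, since the MCM7 summits lay farther away, and MCM7 then had no value. Mean fold enrichment at MCM2 rose from 9.48 to 12.5 with a window of 10 kb, where the upstream peak was taken. As fragments over the genome-wide level with nothing added to either term, the means were 13.2 for MCM2, 9.38 for MCM3, 17.7 for MCM4 and 85.3 for MCM7. This changes 2 choices, so 2 values were set beside it. With nothing added but the local background kept, they were 10.8, 8.86, 15.1 and 46.8. With 1 added to both terms over the genome-wide level, chosen after seeing the data, they were 11.4, 8.19, 15.4 and 73.2. The mean background at MCM7 was 1.69 times the list median but 1.10 times the median of other peaks within 1 Mb, and at MCM6 it went from 0.919 to 1.00. Leaving out 1 replicate gave means of 8.51 to 10.9 for MCM2, 7.28 to 8.36 for MCM3, 11.1 to 14.8 for MCM4, 3.40 to 3.97 for MCM6 and 39.8 to 44.5 for MCM7, and 9 of 10 pairs without overlap each time. A paired test of the gene pairs within libraries, added after seeing the data, gave a smallest exact p of 0.25 beside 0.1 unpaired, each the smallest its design allows. MYC and IgG libraries were not compared. The MCM6 peak rested on the fewest fragments, 18 in the shallowest list. Whether depth accounts for the missing MCM5 peak was not tested.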
